A study of Mus musculus with 6 samples.

Results

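The vacuolar proton pump (V-ATPase) and the lysosomal genes that act beside it were followed through RNA-seq of mouse first molar tooth germs. The members were 40 gene symbols chosen by name: 11 subunits of the V1 sector, 10 of the V0 sector, 2 accessory proteins, 5 CLC chloride-proton antiporters with their partner Ostm1, 3 lysosomal membrane proteins, 3 lysosomal cation channels and 5 cathepsins. Of these, 39 were listed among the 20161 gene rows of the deposited normalized values, and Atp6v1b1 was found in the count table alone. The samples were tooth germs of C57BL/6 mice at postnatal day 7, with 3 libraries from wild-type animals (WT) and 3 from littermates homozygous for a disrupted Gpr115 gene (Gpr115-KO, genotype Gpr115-/-). Gpr115, whose current symbol is Adgrf4, is a receptor of the adhesion family of G protein-coupled receptors, and the study's title places it in enamel mineralization. The labels do not describe the allele beyond this, and they do not say whether a library holds 1 animal or several, so the spread that the p-values rest on is that of these libraries and may be technical.

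The V-ATPase is a rotary machine. Its V1 sector in the cytosol splits ATP, and the turning of its central stalk drives protons through the membrane-embedded V0 sector. CLC antiporters move chloride into endosomes and lysosomes in exchange for protons and so balance the charge of the pumped protons, and cathepsins digest proteins in the acid lumen. In the enamel organ, ameloblasts of the maturation stage take up degraded matrix and regulate the pH at the enamel surface, and osteoclasts around the tooth use the same pump and the antiporter Clcn7 to dissolve bone. Many lysosomal genes carry in their promoters the CLEAR motif (coordinated lysosomal expression and regulation), the binding sequence of the transcription factors Tfeb, Tfe3 and Mitf.

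The promoters of these genes were searched for this motif, and 4 are printed here because they belong to the motif-bearing members with the smallest p-values in the comparison that follows. RefSeq promoters on GRCm38.p6 (250 bases before and 50 bases after a transcription start) matched 32 of the 40 members. The full CLEAR palindrome GTCACGTGAC occurred in 0 of the 32 matched members and in 0.370% of all 27025 genes of that table. Its 8-base core TCACGTGA occurred in 8 of 32 members (25%) and in 1.12% of all genes. The inner 6 bases CACGTG, which are part of the other 2 motifs, occurred in 12 of 32 members (37.5%) and in 8.09% of all genes. All 3 motifs are palindromes, so a search of one strand covers both, and a match is a description of the letters and not a measured binding site. The sequences run 5′ to 3′ on the strand of the gene, and capitals mark the 8-base core where it is whole and otherwise the inner 6 bases.
Atp6v0e, chr17:26676146-26676445, plus strand: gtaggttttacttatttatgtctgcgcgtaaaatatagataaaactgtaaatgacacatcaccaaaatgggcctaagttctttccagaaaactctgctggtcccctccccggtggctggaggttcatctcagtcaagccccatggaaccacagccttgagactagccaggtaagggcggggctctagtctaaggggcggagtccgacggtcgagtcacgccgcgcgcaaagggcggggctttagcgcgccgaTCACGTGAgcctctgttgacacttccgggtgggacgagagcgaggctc
Lamp1, chr8:13158911-13159210, plus strand: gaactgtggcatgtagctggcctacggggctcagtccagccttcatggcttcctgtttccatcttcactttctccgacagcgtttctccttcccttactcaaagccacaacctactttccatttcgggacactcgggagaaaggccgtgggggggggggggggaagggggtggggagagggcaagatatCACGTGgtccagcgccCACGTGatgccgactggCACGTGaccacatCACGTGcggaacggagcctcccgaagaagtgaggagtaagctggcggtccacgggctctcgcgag
Clcn6, chr4:148038764-148039063, minus strand: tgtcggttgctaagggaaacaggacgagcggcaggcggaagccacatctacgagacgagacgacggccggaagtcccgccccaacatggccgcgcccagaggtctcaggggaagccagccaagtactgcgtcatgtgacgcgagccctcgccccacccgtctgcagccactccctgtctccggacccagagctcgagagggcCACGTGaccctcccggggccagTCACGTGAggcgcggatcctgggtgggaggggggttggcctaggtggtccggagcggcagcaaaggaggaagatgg
Mcoln1, chr8:3500269-3500568, plus strand: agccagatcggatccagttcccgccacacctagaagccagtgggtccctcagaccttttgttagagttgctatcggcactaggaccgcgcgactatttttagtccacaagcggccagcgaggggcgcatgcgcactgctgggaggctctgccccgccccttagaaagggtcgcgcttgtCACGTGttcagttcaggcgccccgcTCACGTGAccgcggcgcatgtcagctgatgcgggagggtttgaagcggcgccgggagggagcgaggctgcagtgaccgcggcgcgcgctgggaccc
In the Atp6v0e promoter the inner bases of the core began 4 bases into the transcript, and its RefSeq start lies 13.2 kb inside the gene as GENCODE draws it. Lamp1 had no whole core but 4 separate copies of the inner 6 bases within its last 61 bases before the start. Clcn6 and Mcoln1 each had 1 core and 1 further copy of the inner bases upstream of it. The other holders of the core were the pump subunit genes Atp6v0d1 and Atp6v1a, the antiporter gene Clcn7 and the cathepsin genes Ctsa and Ctsd, and Ctsa carried it on both sides of its start. The search for the 8-base core was added after no member was found to hold the full palindrome.

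**Figure D1:**
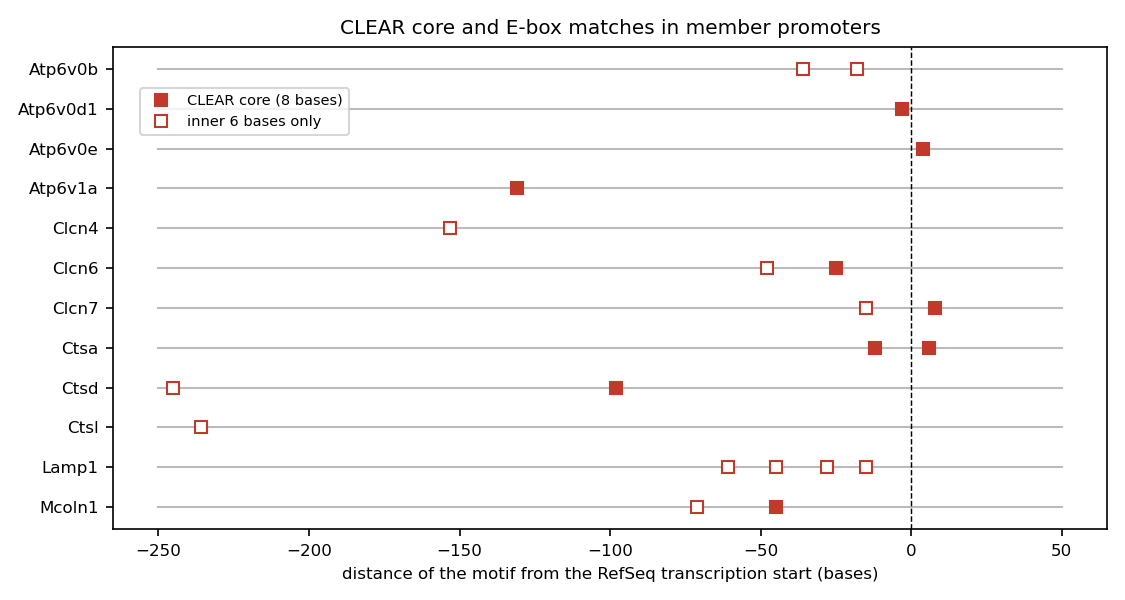
Positions of the CLEAR core (filled squares) and of its inner 6 bases alone (open squares) in the 12 member promoters that hold either, with the distance of the first inner base from the RefSeq transcription start on the x axis in bases. Lamp1 has 4 inner-base matches and no core, and Ctsa has 2 cores.

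Libraries and tissue markers were checked before the comparison. Totals ran from 8317302 to 11122821 counts, so that 1 count was worth 0.0907 to 0.114 CPM (counts scaled to the TMM-adjusted library size). Adgrf4 itself read 67.1, 62.5 and 67.5 CPM in the WT libraries against 39.2, 20.6 and 27.5 CPM in Gpr115-KO, so transcripts of the targeted gene were counted in all 6 libraries (log2 fold change −1.18, SE 0.21, adjusted p = 0.0887 in edgeR). Gpr115-KO replicate 2 stood apart from the other libraries. Its 7 skeletal muscle markers summed to 197 CPM against 19.5 to 53.3 CPM elsewhere. Its 8 maturation ameloblast markers summed to 2106 CPM against 5074 to 8786 CPM. By the median deviation of these 8 from the mean of the libraries (log2 of CPM plus 0.5), it did not stand apart. It was at −0.43, Gpr115-KO replicate 3 at −0.46 and Gpr115-KO replicate 1 at 0.58. The 7 secretory ameloblast markers of Gpr115-KO replicate 2 summed to 202162 CPM against 91942 to 140529 CPM elsewhere. Gpr115-KO replicate 3 had 2.93 CPM of Xist, which coats the inactive X, against 28.9 to 47.8 CPM in the others, and 4 members (Atp6ap1, Atp6ap2, Clcn5 and Lamp2) are X-linked, each with overlapping groups. The neutrophil markers summed to 9.25 to 15.5 CPM in the WT libraries against 27.8 to 37.6 CPM in Gpr115-KO, and the erythroid markers to 139 to 158 CPM and 159 to 396 CPM. Of these blood cell markers 0 were called by edgeR, and DESeq2 called 4 higher, against 0.463% of all genes. At an unadjusted p under 0.05, 6 of 7 tested neutrophil markers and 6 of 6 tested erythroid markers were higher. None was lower, and the shares over all genes were 4.85% higher and 7.48% lower. Higher without overlap were 5 neutrophil and 4 erythroid markers, against 8.55% of all genes. Their part in the members' differences was not tested.

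Ordered by level, the members spanned the range from some of the most abundant transcripts of the tooth germ to genes at the limit of counting. Levels are compared between genes as mean CPM per kb of annotated exons over the 6 libraries. Atp6v1g1, a subunit of the peripheral stalk, led at 266 CPM per kb and lay at the 99.3 percentile of the 16011 genes tested. Ctsb, the cysteine protease cathepsin B, followed at 204 and Atp6v0b, a proteolipid of the proton-carrying ring, at 118 CPM per kb. Atp6v1f (91.5), the tetraspanin gene Cd63 (88.8), the aspartic protease gene Ctsd (87.8), the carboxypeptidase gene Ctsz (86.8), the rotor subunit gene Atp6v1d (69.4) and Atp6v0e (67.9 CPM per kb) also lay at or above the 96.0 percentile. The Atp6v0e value pools a WT mean of 39.5 and a Gpr115-KO mean of 96.3 CPM per kb, so its rank rests on the Gpr115-KO libraries in part. Atp6v1b1, the B subunit known from acid-secreting cells of kidney and inner ear, had 3, 2 and 1 counts in WT and 5, 1 and 1 in Gpr115-KO. Atp6v0a4, its partner in those cells, had 11, 3 and 6 counts in WT and 8, 10 and 12 in Gpr115-KO. Neither passed the count filter, so 38 of the 40 members were tested.

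**Figure D2:**
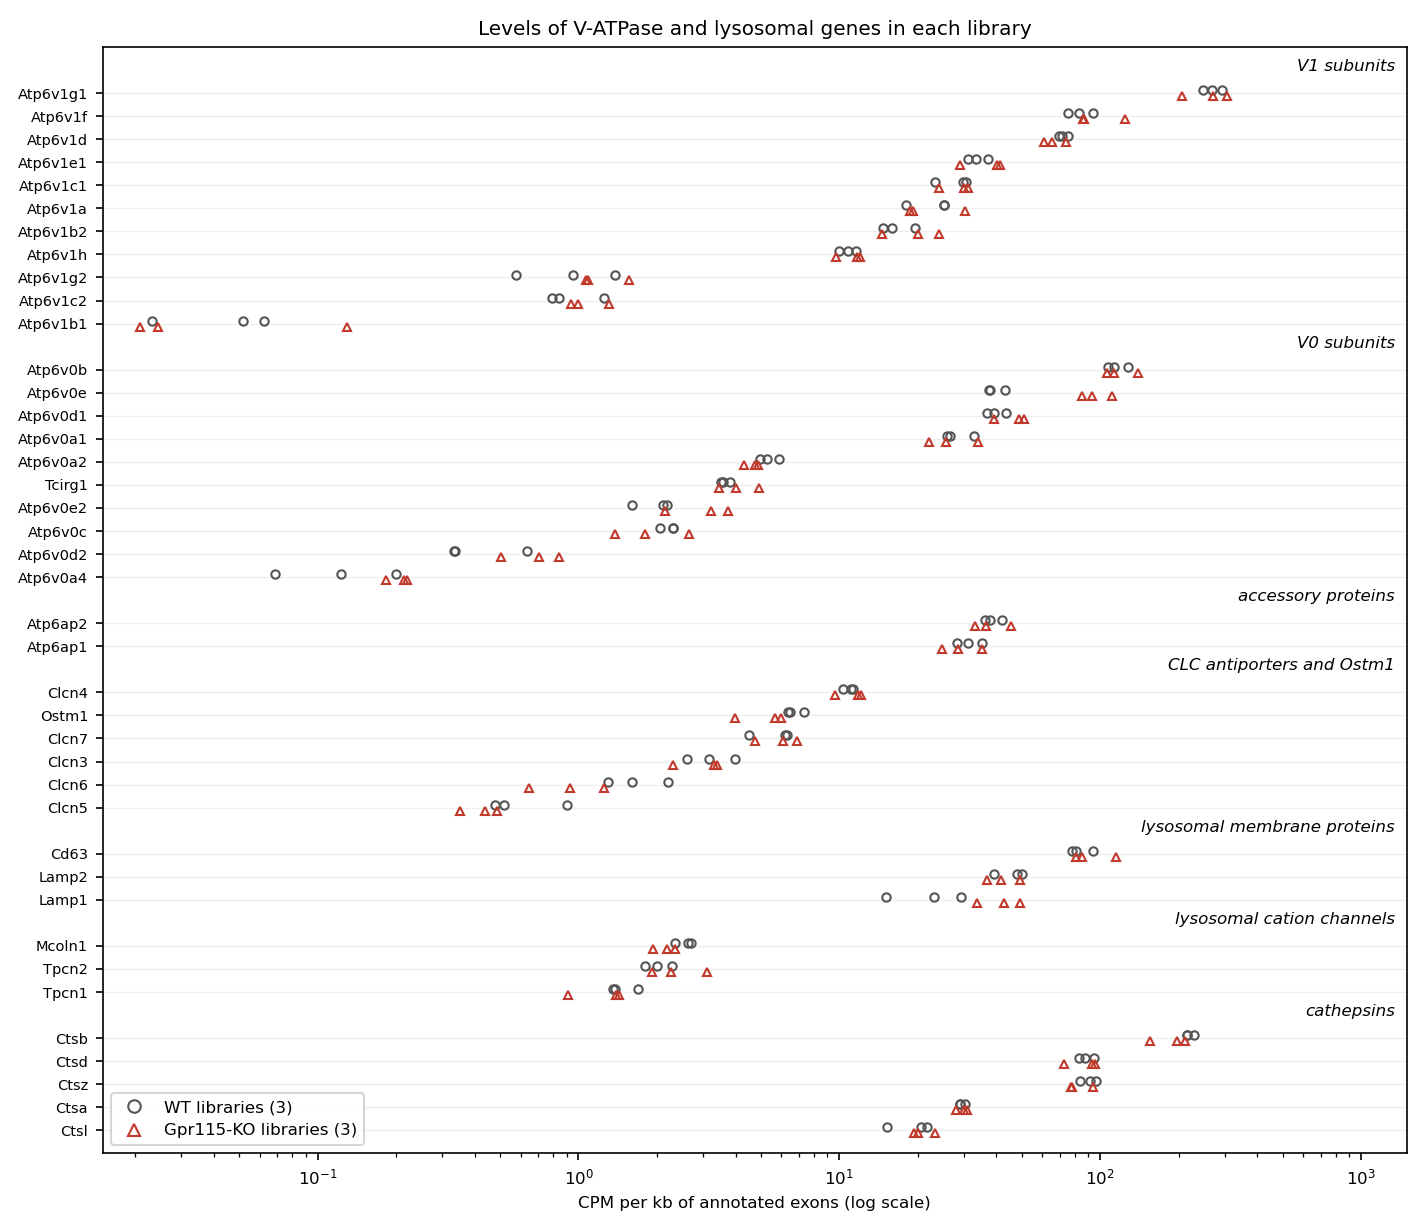
Level of each of the 40 genes in every library, in CPM per kb of annotated exons on a log axis, with WT libraries as circles and Gpr115-KO libraries as triangles, grouped by role. Atp6v1g1 and Ctsb are the highest, Atp6v1b1 and Atp6v0a4 the lowest, and the groups separate most widely for Atp6v0e.

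Where a pump subunit has several genes, 1 of them made up most of the transcripts in every library. Subunit a anchors the pump to a membrane, and its 4 isoforms differ in where they place it. Atp6v0a1 took 68.8% to 79.2% of the summed CPM per kb of these 4 genes over the 6 libraries, Atp6v0a2 11.1% to 16.6%, Tcirg1 8.54% to 15.3% and Atp6v0a4 at most 0.690%. Tcirg1 encodes the a3 isoform of lysosomes and of the osteoclast's ruffled border. Its share was 9.75% ± 1.08 in WT and 11.7% ± 3.21 in Gpr115-KO (SD, n = 3), a difference smaller than the spread in Gpr115-KO. The B subunit was almost entirely Atp6v1b2 (99.5% to 99.9%), the d subunit Atp6v0d1 (98.3% to 99.2%), and the G subunit Atp6v1g1 (99.2% to 99.8%). Atp6v1c1 took 94.8% to 97.3% of subunit C, with Atp6v1c2, an isoform of a few epithelia, at 1.02 CPM per kb. Scaling by the longest coding transcript in place of all exons kept the leading gene of each of these families.

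**Figure D3:**
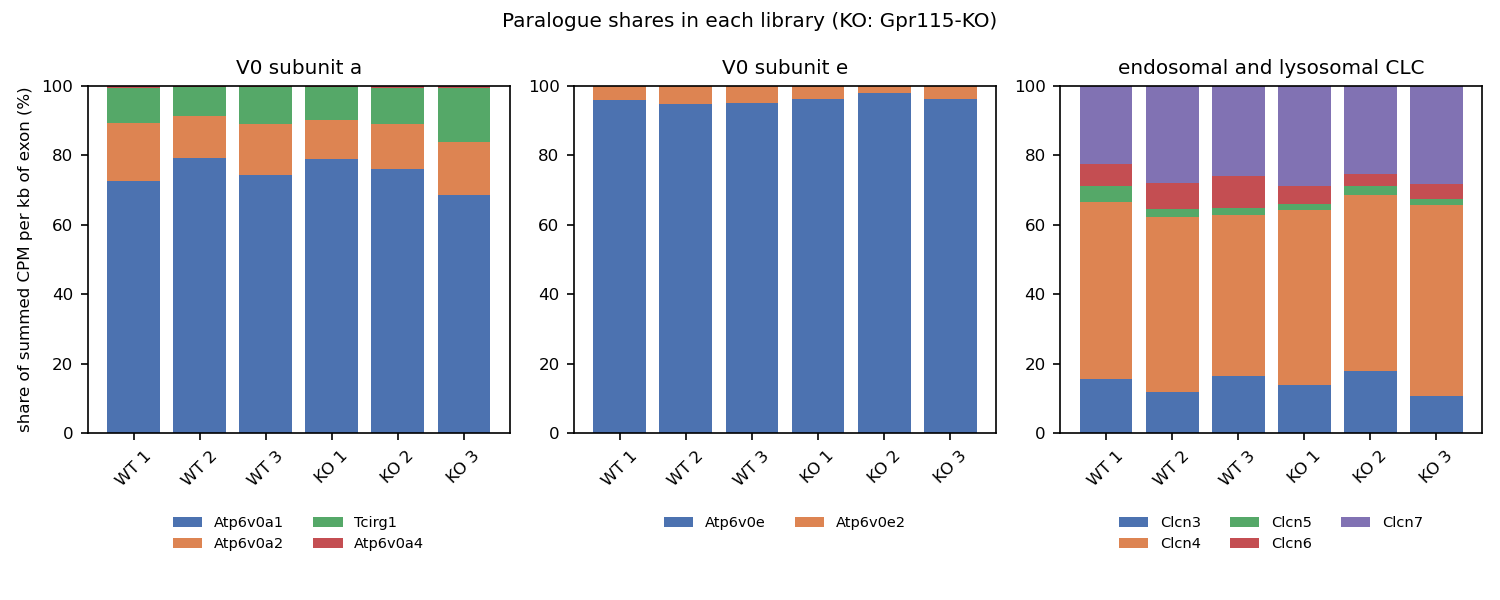
Share of each paralogue in the summed CPM per kb of its family, in percent, for every library, in V0 subunit a, V0 subunit e and the endosomal and lysosomal CLC antiporters. Atp6v0a1, Atp6v0e and Clcn4 hold the largest share in all 6 libraries.

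The ring subunit c was an exception among the core subunits. A pump holds several copies of the c proteolipid, yet Atp6v0c read 7.80, 6.93 and 7.83 CPM in the WT libraries against 9.002, 6.09 and 4.66 CPM in Gpr115-KO, or 2.08 CPM per kb against 118 for its ring partner Atp6v0b. The groups overlapped. Atp6v0c shares at least 95% identity over 150 nt or more with the pseudogenes Atp6v0c-ps1 and Atp6v0c-ps2, and Atp6v0c-ps1 had 20 to 38 counts a library. No source used here says how the authors' counting treated reads that fit several genes, so the level of Atp6v0c is uncertain. The same caution applies to Atp6v1g1, whose pseudogene Gm13453 had 172 to 287 counts a library, and to Cd63, whose copy Cd63-ps had 584 to 1039. It also applies to Ctsl, which shares such stretches with 24 other genes. Some members share exon with genes on the opposite strand, among them Ctsl (1742 nt), Clcn4 (985 nt, Gm45631) and Ctsb (774 nt, Fdft1). Reads from those stretches cannot be separated, because the library kit does not mark strand.

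The comparison of genotypes asked which of these transcripts differ in the tooth germ without an intact Gpr115. Of 38 tested members 1 passed the threshold and rose, Atp6v0e (2.63%), and 0 fell (edgeR's quasi-likelihood test, adjusted p under 0.05 over all genes). Over all 16011 genes 0.15% were called, 0.0375% higher and 0.112% lower. DESeq2, which gave an adjusted p for 35 members, called 2 higher and 0 lower, against 0.463% and 1.41% of all genes. At an unadjusted p under 0.05 there were 3 members higher (7.89%) and 1 lower (2.63%), against 4.85% and 7.48% of all genes. The median log2 fold change of the tested members was 0.02 and that of all genes 0.01, and 20 of the 38 lay above 0, against 51.3% of all genes. In bulk tissue, fewer cells of a type and less RNA per cell cannot be told apart.

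**Figure D4:**
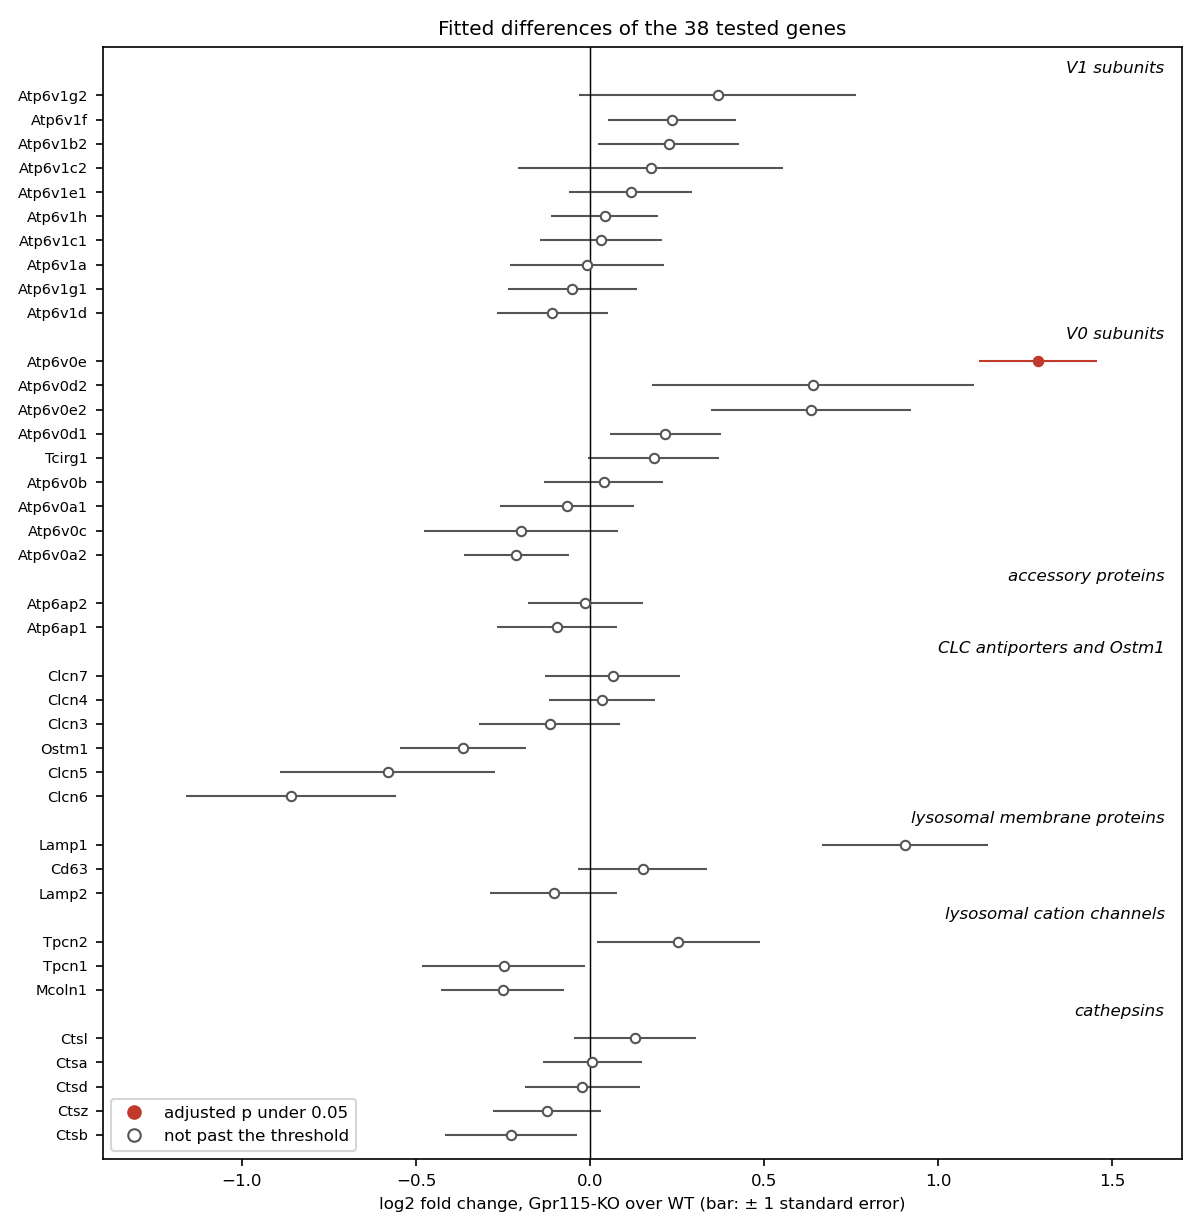
Fitted log2 fold change of Gpr115-KO over WT for the 38 tested genes, with bars of 1 standard error, grouped by role. Atp6v0e, filled, is the single gene past the threshold, and Lamp1 and Clcn6 are the next by p in each direction.

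Atp6v0e encodes subunit e, a small hydrophobic protein of the V0 sector. The gene (ENSMUSG00000015575) lies on chromosome 17 from 26663231 to 26699647 on GRCm38. Its normalised read count was 139.8, 139 and 161 CPM in the WT libraries against 345, 411 and 316 CPM in Gpr115-KO. Every Gpr115-KO library was above every WT library, by a gap wider than the range within either group. The means were 146 ± 12.4 and 357 ± 48.6 CPM (SD, n = 3), a 2.44-fold difference or a log2 fold change of 1.29 with an SE of 0.17 (adjusted p = 0.0126 in edgeR). Without Gpr115-KO replicate 2, which was the highest, the value was 1.18 (edgeR adjusted p = 0.0224). The call was lost when WT replicate 1, 2 or 3 was left out, with adjusted p of 0.103, 0.126 and 0.0559, while the log2 fold change stayed between 1.25 and 1.36 in those fits. No exon of another annotated gene overlaps its exons, and no near-identical copy was found.

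Its paralogue Atp6v0e2, the other gene for subunit e, was far lower. It read 3.81, 5.001 and 5.18 CPM in the WT libraries against 8.89, 5.13 and 7.68 CPM in Gpr115-KO. Replicate 2 of Gpr115-KO lay inside the WT range and the other 2 above it. The fitted log2 fold change came to 0.63 with an SE of 0.29 (adjusted p = 0.404 in edgeR). Atp6v0e made up 94.7% to 98.1% of the pair's summed CPM per kb, with a share of 95.3% ± 0.625 in WT and 96.9% ± 1.07 in Gpr115-KO (SD, n = 3).

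No other V0 gene passed the test (edgeR 0 of 8 tested and DESeq2 0 of 7). At an unadjusted p under 0.05, 1 of the 8 was higher (12.5%) and 0 lower, against 4.85% and 7.48% of all genes. The 9 other V0 genes summed to 525 to 584 CPM in the WT libraries against 502 to 613 CPM in Gpr115-KO, so the groups overlapped. Atp6v0d2, a d isoform known from osteoclasts, had 0.907, 0.909 and 1.73 CPM in the WT libraries against 2.28, 1.92 and 1.37 CPM in Gpr115-KO, or 8 to 20 counts a library. It stood at 0.64 on the log2 scale with an SE of 0.46 (adjusted p = 0.609 in edgeR). Atp6v0d1, the widespread form of this subunit, which couples the stalk to the ring, had 65.7, 70.5 and 78.4 CPM in the WT libraries against 87.6, 91.7 and 70.0 CPM in Gpr115-KO (0.22, SE 0.16). Atp6v0a2, the a isoform of the Golgi and endosomes, was lower without overlap, at 39.6, 33.5 and 35.4 CPM against 31.9, 29.1 and 32.7 CPM. Its fitted log2 fold change came to −0.21 with an SE of 0.15 (adjusted p = 0.599 in edgeR). An antisense transcript, 4930404A12Rik, shares 663 nt with it, and its reads cannot be separated from those of the gene because the library kit does not mark strand. Single libraries moved these values: Atp6v0d2 lay at 1.02 without WT replicate 3, Atp6v0d1 at 0.14 without Gpr115-KO replicate 2 and 0.33 without replicate 3, and Atp6v0a2 at −0.14 without WT replicate 1. Atp6v0a1, Tcirg1 and Atp6v0b lay at −0.07, 0.18 and 0.04.

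In the V1 sector 7 of 10 tested genes lay above 0, against 51.3% of all genes, with a median log2 fold change of 0.08 against 0.01. None was called by edgeR (smallest adjusted p 0.638) or DESeq2. At an unadjusted p under 0.05 there were 0, against 4.85% of all genes higher and 7.48% lower. The longest coding transcripts of the 10 genes run from 806 to 4234 nt. Of all genes up to 2000 nt by this length 68.2% lay above 0, and of those over 2000 nt 44.5%. The largest log2 fold changes in absolute value among the abundant V1 genes were those of Atp6v1f and Atp6v1b2. Atp6v1f, a small subunit of the central stalk, had 79.7, 88.5 and 99.8 CPM in the WT libraries against 92.0, 132 and 91.5 CPM in Gpr115-KO (0.23, SE 0.18). Atp6v1b2, the regulatory partner of the catalytic subunit, had 84.3, 78.0 and 103 CPM in the WT libraries against 128, 106 and 77.0 CPM in Gpr115-KO (0.23, SE 0.20). In both genes the groups overlapped, and the difference rested largely on 1 library. Atp6v1f lay at 0.04 without Gpr115-KO replicate 2 and Atp6v1b2 at 0.05 without Gpr115-KO replicate 1. Atp6v1a, the catalytic subunit itself, averaged 138 ± 25.2 CPM in the WT libraries and 137 ± 39.7 CPM in those of Gpr115-KO (SD, n = 3). The remaining V1 genes ran from −0.11 for Atp6v1d to 0.37 for Atp6v1g2, an isoform of neurons at 1.10 CPM per kb. The accessory genes Atp6ap1 and Atp6ap2, whose products help to assemble the pump, lay at −0.10 and −0.01.

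The call in the pump thus stood on 1 gene of the V0 sector. Summed V1 transcripts read 1295, 1333 and 1450 CPM in the WT libraries against 1506, 1464 and 1151 CPM in Gpr115-KO. Atp6v0e is 1 of 4 members on chromosome 17, the chromosome of Adgrf4, with a start 16.0 Mb from that of Adgrf4. The other 3 were not called: Atp6v0c at −0.20, Clcn7 at 0.07 and Atp6v1g2 at 0.37. Chromosome 17 held 18 of the 24 genes called over all chromosomes, Atp6v0e among them, or 2.49% of its 724 tested genes against 0.0392% on the other chromosomes. Within 1 Mb of the Atp6v0e start 51 other genes were tested, of which 1 was called (Luc7l, −3.76), or 1.96%. Around Atp6v1g2, in the major histocompatibility region, 10 of 83 neighbours were called (12.05%), with log2 fold changes from −5.57 to 2.63. Around Clcn7 and Atp6v0c 2 of 76 and 2 of 59 were called, the same 2 genes. The median log2 fold changes of the neighbours were −0.04 around Atp6v0e, 0.05 around Atp6v1g2, 0.08 around Clcn7 and 0.09 around Atp6v0c. In this design an effect of the disrupted gene and one of sequence linked to it on chromosome 17 cannot be told apart for Atp6v0e. The 34 tested members on other chromosomes had a median of −0.00, and edgeR called 0 of them (DESeq2 called 1, Lamp1). At an unadjusted p under 0.05, 2 were higher (5.88%) and 1 lower (2.94%), against 4.85% and 7.48% of all genes.

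Among the lysosomal membrane proteins, Lamp1 had the largest difference. It encodes a heavily glycosylated protein that lines the lysosome. Lamp1 read 40.4, 61.8 and 78.0 CPM in the WT libraries against 89.9, 132 and 115 CPM in Gpr115-KO. The groups did not overlap, although the gap between them was narrower than the range of the WT libraries. The fitted log2 fold change came to 0.90 with an SE of 0.24 (adjusted p = 0.225 in edgeR). It was not called there, but it was called by DESeq2 (0.91, adjusted p = 0.0279) and by edgeR with no count filter (0.90, adjusted p = 0.00068). Without WT replicate 1, the lowest library, the value was 0.69 (edgeR adjusted p = 0.695). Lamp1 shares 249 nt of exon with Grtp1 on the opposite strand, a gene at 270 to 435 counts a library whose own log2 fold change was 0.37. Lamp2, its sister protein and the receptor of chaperone-mediated autophagy, stood at 459, 481 and 374 CPM in the WT libraries against 472, 352 and 398 CPM in Gpr115-KO (−0.10, SE 0.18). Cd63, which sorts cargo into vesicles inside late endosomes, lay at 0.15.

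None of the 6 genes of the CLC group was called by edgeR or DESeq2. At an unadjusted p under 0.05, 0 were higher and 1 lower (16.7%), against 4.85% and 7.48% of all genes. Their median log2 fold change was −0.24, and 4 lay below 0. Clcn6 and Ostm1 were lower without overlap (33.3%), against 8.99% of all genes. The longest coding transcripts of the 6 genes run from 3006 to 8390 nt. Of all genes over 2000 nt by this length, 44.5% lay above 0. Clcn6, the antiporter of late endosomes, read 7.71, 9.55 and 13.1 CPM in the WT libraries against 7.41, 3.85 and 5.49 CPM in Gpr115-KO. The highest Gpr115-KO library thus lay just under the lowest WT library. The fitted log2 fold change came to −0.86 with an SE of 0.30 (adjusted p = 0.299 in edgeR). Ostm1, the β-subunit that Clcn7 needs for its stability, read 52.7, 45.9 and 46.4 CPM in the WT libraries against 43.2, 28.6 and 40.8 CPM in Gpr115-KO, with the lowest value in replicate 2. Its fitted log2 fold change came to −0.37 with an SE of 0.18 (adjusted p = 0.438 in edgeR), and −0.20 without that replicate. Ostm1 shares 410 nt with the antisense gene Gm15200, which had at most 36 counts.

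Clcn5, known for its role in endocytosis in the kidney tubule, was high in 1 library alone. WT replicate 1 had 10.3 CPM and the other 5 libraries 4.02 to 5.91 CPM. The fitted log2 fold change came to −0.58 with an SE of 0.31 (adjusted p = 0.470 in edgeR), and −0.23 without that library. Clcn4 had the highest level per kb of the antiporters, with 46.6% to 54.96% of their sum, and lay at 0.03 (SE 0.15). Clcn7, the lysosomal antiporter, took 22.4% to 28.8%, and Clcn3 10.7% to 17.9%. By the longest coding transcript Clcn3 ranked above Clcn7 (9.38 against 7.22 CPM per kb), so the order of these 2 genes depends on the length used. Clcn7 lay at 0.07 and its partner Ostm1 at −0.37, and that pair's difference was not tested.

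**Figure D5:**
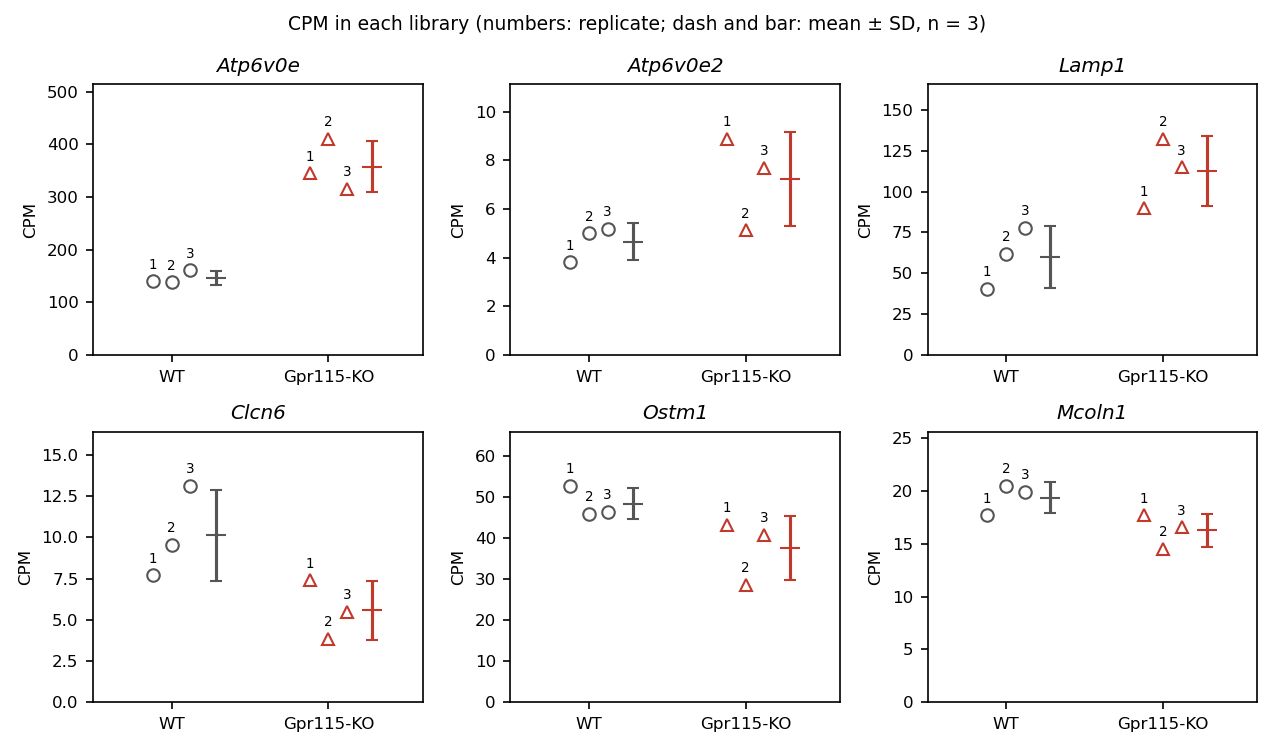
CPM of 6 genes in every library, with replicate numbers beside the points and mean ± SD (n = 3) at the right of each group, on axes that start at 0. Atp6v0e separates widely, Lamp1, Clcn6, Ostm1 and Mcoln1 separate narrowly, and Atp6v0e2 overlaps in Gpr115-KO replicate 2.

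Over all tested members, 2 were higher without overlap (5.26%) and 5 lower (13.2%), against 8.55% and 8.99% of all genes. The lower genes were Atp6v0a2, Clcn6, Ostm1, Mcoln1 and Ctsb. Mcoln1, the calcium channel of the lysosome, had 17.7, 20.5 and 19.9 CPM in the WT libraries against 17.7, 14.5 and 16.6 CPM in Gpr115-KO, so that the groups met at 17.7 CPM. Its fitted log2 fold change came to −0.25 with an SE of 0.18 (adjusted p = 0.595 in edgeR). The two-pore channel genes Tpcn1 and Tpcn2 lay at −0.25 (SE 0.23) and 0.25 (SE 0.23) with overlapping libraries, Tpcn2 at 10.5, 12.05 and 9.45 CPM in the WT libraries against 16.3, 11.9 and 10.1 CPM in Gpr115-KO. Without Gpr115-KO replicate 1 Tpcn2 lay at 0.04.

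No cathepsin passed the test (edgeR and DESeq2 0 of 5, and 0 at an unadjusted p under 0.05). Ctsb, the most abundant, read 1390, 1302 and 1306 CPM in the WT libraries against 1281, 938 and 1195 CPM in Gpr115-KO. The lowest value was that of replicate 2, and the fitted log2 fold change came to −0.23 with an SE of 0.19 (adjusted p = 0.662 in edgeR), and −0.11 without that library. Ctsa, the protective protein of lysosomal sialidase and galactosidase, varied little, at 139 ± 3.46 CPM in the WT libraries and 139.6 ± 6.89 CPM in those of Gpr115-KO (SD, n = 3). Ctsd, Ctsl and Ctsz lay at −0.02, 0.13 and −0.12. Summed over the 5 genes, of which Ctsb makes up most, the level was 1925 to 1952 CPM in the WT libraries against 1516 to 1875 CPM in Gpr115-KO, with 1516 in replicate 2.

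Most of the extreme values came from 4 libraries. The highest of the 6 values fell in Gpr115-KO replicate 1 for 12 members and in replicate 2 for 11. The lowest fell in WT replicate 1 for 12, in Gpr115-KO replicate 2 for 12 and in replicate 3 for 11. Replicate 2 of Gpr115-KO was thus at both ends. Its median deviation from the mean of the libraries, on log2 of CPM plus 0.5, was 0.15 over the V1 genes, −0.10 over the V0 genes and −0.19 over the 17 lysosomal and CLC genes. This library also stood apart in its muscle markers and in the sum of its maturation ameloblast markers, given above. Their part in these deviations was not tested.

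Short transcripts lay higher than long ones among the members and among all tested genes with a protein-coding transcript. Of 11 members whose longest coding transcript is at most 2000 nt, 8 lay above 0, with a median of 0.15. Of the 27 longer ones, 12 lay above 0, with a median of −0.01. Over all tested genes with a protein-coding transcript the same split gave 68.2% of 3062 above 0 (median 0.14) and 44.5% of 9797 (median −0.04). With each library's trend on exonic length removed, Atp6v0e stood at 1.29 (edgeR adjusted p = 0.0125) and Lamp1 at 0.87 (0.250). Among the other named members Atp6v1f went from 0.23 to 0.08, Atp6v0d1 from 0.22 to 0.14, Atp6v0a2 from −0.21 to −0.13 and Mcoln1 from −0.25 to −0.15. Clcn5 went from −0.58 to −0.40, Ostm1 from −0.37 to −0.28, Ctsb from −0.23 to −0.16 and Clcn6 from −0.86 to −0.80. Atp6v0d2 went from 0.64 to 0.61 and Atp6v0e2 from 0.63 to 0.59. Atp6v1b2 and Tpcn2 moved away from 0, from 0.225 to 0.275 and from 0.25 to 0.30.

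The other genes of the pathway were examined as 94 further genes of pump assembly, lysosomal enzymes, membrane and sorting proteins, nutrient sensing and endosomal ion exchange. Of the 83 that could be tested 0 were called in either direction by edgeR (DESeq2 called 0 of 81). At an unadjusted p under 0.05, 2 were higher (2.41%) and 5 lower (6.02%), against 4.85% and 7.48% of all genes. The median log2 fold change of these 83 was −0.04, and that of all genes 0.01. Tmem199, an assembly factor of the V0 sector, read 67.3, 73.8 and 53.9 CPM in the WT libraries against 46.9, 37.1 and 46.3 CPM in Gpr115-KO (−0.58, SE 0.17, edgeR adjusted p = 0.253). Oxr1, whose protein belongs to a family that regulates the pump, lay at −0.32 (SE 0.15). Of 37 other hydrolases 19 lay above 0, against 51.3% of all genes. Sgsh, the heparan sulfamidase, and Smpd1, the acid sphingomyelinase, had the smallest p, at −0.68 (SE 0.28) and 0.43 (SE 0.17). Among membrane and sorting genes these were Slc38a9, the lysosomal arginine sensor (−0.47, SE 0.18), and Igf2r, the receptor that sorts lysosomal enzymes (−0.41, SE 0.17). Igf2r lies on chromosome 17, so an effect of sequence linked to Adgrf4 cannot be told apart for it either. Among the transcription and nutrient-sensing genes Mitf read 40.7, 32.3 and 29.3 CPM in the WT libraries against 24.6, 24.2 and 23.5 CPM in Gpr115-KO (−0.50, SE 0.17, edgeR adjusted p = 0.289). Its groups did not overlap. Lamtor4, of the complex that holds mTORC1 at the lysosome, lay at 0.47 (SE 0.21). Among the endosomal exchangers Slc9a8 lay at −0.15 (SE 0.38). The 8 holders of the CLEAR core had a median of −0.00 and the 22 other matched and tested members 0.04.

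Osteoclasts and macrophages carry many of these transcripts, so their markers were read beside the members. The 9 osteoclast markers summed to 60.5 to 71.6 CPM in the WT libraries against 75.7 to 95.03 CPM in Gpr115-KO, and 4 of the 9 were too low to test. Of the other 5 edgeR called 0, and DESeq2 called 0 of the 4 to which it gave an adjusted p. At an unadjusted p under 0.05, 1 of the 5 was higher (20%) and 0 lower, against 4.85% and 7.48% of all genes. The highest osteoclast marker, the protease gene Ctsk, had 31.2, 27.1 and 21.3 CPM in the WT libraries against 45.7, 43.3 and 36.7 CPM in Gpr115-KO (0.66, SE 0.18, edgeR adjusted p = 0.233). Acp5, the osteoclast's acid phosphatase, overlapped at 17.5 to 19.1 and 16.8 to 25.9 CPM. The 9 macrophage markers summed to 124 to 143 CPM and 124 to 192 CPM. Of these 9, 8 lay above 0, against 51.3% of all genes, and edgeR and DESeq2 called 0. At an unadjusted p under 0.05, 2 were higher (22.2%) and 0 lower, against 4.85% and 7.48% of all genes. The 2 higher markers were the complement gene C1qa (6.53 to 7.62 CPM in WT and 10.5 to 14.0015 CPM in Gpr115-KO, log2 fold change 0.82), whose groups did not overlap, and the protease gene Ctss (0.64). Of the osteoclast markers, Dcstamp was at 0 in 1 library and at most 1.42 CPM, and Calcr at most 0.363 CPM. The pump genes known from osteoclasts, Tcirg1 (16.3 to 17.5 CPM in WT, 15.9 to 22.6 CPM in Gpr115-KO) and Atp6v0d2, had overlapping groups. The part of osteoclasts and macrophages in the members' differences was not tested.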

How the data were processed

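RNA from first molars was extracted with TRIzol, made into libraries with a Nextera XT kit, which does not mark strand, and read as pairs on a HiSeq1500, per the labels' protocols. STAR 2.5.2a, DESeq2, edgeR, limma and the build GRCm38 (mm10) are named in the submitters' processing notes. Not given in the sources used here are the counting tool and the gene models behind the counts. Raw counts per gene are what the authors deposited (48709 gene rows, and 15 transgene rows with at most 8 counts in a library, left out) together with a normalized signal that is, per the file name and the values, CPM scaled by TMM. One factor per column turned this signal back into whole reads (100% of values within 0.01 reads), and 100% of these equalled the deposited counts.

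The count test was edgeR 4.0.16 under R 4.3.3: filterByExpr (minimum count 10, total 15; 16011 genes kept), TMM, a robust quasi-likelihood fit with genotype as the only term, two-sided, and Benjamini-Hochberg adjustment over all genes, called under 0.05. Standard errors are log2 fold changes, without sign, over the square root of F. Printed CPM use the TMM-scaled library size with no pseudocount. A count of 3, the limit that a count of 0 allows, was worth 0.272 to 0.342 CPM, counting error only. Symbols came from the deposited table and otherwise from GENCODE vM21, which also gave positions, overlaps and exon lengths; near-identical copies came from blastn 2.17.0 (95% over 150 nt). A chi-square of counts per degree of freedom was 15.6 or more for every pair of libraries, so none was a repeat of another.

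Fold changes with errors are given for called members and for the 14 members with the smallest p, and other pathway genes for the 2 smallest p in each list, of which 1 is not reported here. Other values, such as those of Lamp2, Clcn4, Tpcn1, Atp6v0c and the markers, were picked after they were seen. The members, lists and rules were chosen with earlier results of these data known, so no set test was made. Alternatives were other scalings, filters, tests and thresholds, a length correction, a block for the replicate number, limma-trend on the deposited signal (log2 with 1 added), each library left out and, added after seeing the data, edgeR on the recovered reads.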

Additional observations from a re-analysis of the deposited data

How the results depend on the processing

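The 14 members named with fold changes and errors kept their direction in all 237 alternative fits. They were picked by their small p in the main fit, and the fits share libraries, so these are not independent checks. The Atp6v0e call was lost in 3 of its 17 alternatives (each WT library left out), with log2 fold changes of 1.18 to 1.37 and adjusted p of 8.9e-11 to 0.126. Lamp1 gained a call in 2, so 2 members were called higher with no count filter and 2 with the DESeq2 Wald test; with 1 library left out 0 to 1 was called higher, and 0 were called lower in every setting. The median over the members ran from −0.04 to 0.07 with 1 library left out and was 0.10 on library totals alone, where the median of all genes was 0.09.

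Over all genes, 6 higher and 18 lower calls became 135 and 365 with no count filter, 59 and 180 with DESeq2, and 16 and 35 at an adjusted p under 0.10. Library totals alone gave 11 lower. With 1 library left out they ran from 5 to 10 higher and 7 to 39 lower. The cause of these shifts was not tested, apart from the threshold. With the replicate number as a block there were 18 higher and 54 lower. The numbers do not pair the samples by the rule used: the correlations of same-numbered deviations were 0.27, 0.03 and −0.07, and only replicate 1 correlated best with its own number. Depth limits Atp6v1b1, Atp6v0a4 and Atp6v0d2, at 20 counts or fewer in each library.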
